A study of Mus musculus with 9 samples.

Results

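The DNA replication and G1/S genes are 43 genes that license and fire replication origins, copy DNA, supply deoxynucleotides or drive entry into S phase. They were chosen by gene symbol from knowledge of the pathway, with earlier results of these data known. For each gene 1 probe set was used, the one with the highest mean log2 intensity over all 9 arrays. All 43 had a probe set of their own among the 18193 genes that did, and all lay above the array's background limit on every array. That limit was the 95th percentile of 27 bacterial control probe sets on each array.

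Replication starts when the origin recognition complex, CDC6 and CDT1 load the MCM helicase onto DNA in G1, and geminin keeps this from happening again after S phase begins. CDC45 and the GINS complex then turn the loaded helicase on, and polymerases working with the PCNA clamp, its loader and the single-strand binding protein RPA copy both strands. Many of these genes are transcribed by E2F factors late in G1, and in bone marrow they are known as markers of cycling progenitors as opposed to quiescent stem cells.

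RNA came from sorted bone marrow of 6-week-old mice on 3 Affymetrix arrays per group. WT LSK cells (lineage-negative, cKit+, Sca1+) are the fraction that holds stem and multipotent progenitor cells, and their mice were Ncstn flox/flox. WT GMP (lineage-negative, cKit+, Sca1-, CD34+, FcgRII/III+), the granulocyte-monocyte progenitors, came from Ncstn flox/flox mice, and NcstnKO GMP from Ncstn flox/flox Mx1-cre+ littermates. All mice were given polyIC 3 times at 20 micrograms per gram from 14 days of age and were killed 4 weeks later. PolyIC switches on the interferon-driven Mx1-cre in blood-forming and other cells, so the deletion is not limited to GMP, and an effect of Cre itself cannot be told apart from loss of Ncstn. The labels name 1 mouse as the source and do not say whether cells were pooled, so p-values measure the spread between these arrays. With bulk RNA, fewer cells of a type and less RNA per cell cannot be told apart.

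The targeted gene, Ncstn, which encodes the nicastrin subunit of gamma-secretase, read 9.27 ± 0.034 in WT GMP and 7.78 ± 0.016 in NcstnKO GMP (log2 intensity, mean ± SD, n = 3), 2.82-fold lower (adjusted p = 0.000287). Its second, dimmer probe set differed by 0.13. Sex-linked transcripts went against the labelled sex in 4 of 9 arrays: WT GMP 2 and 3 are labelled female but looked male, and NcstnKO GMP 2 and 3 are labelled male but looked female. By transcripts, NcstnKO GMP held 3 females, and WT GMP and LSK each held 1 female and 2 males. Of marker genes, 8 of 8 measured LSK and stem cell genes were lower in WT GMP than in LSK, and 7 of 7 GMP and primary granule genes were higher. These lists hold 2 genes of the sort, Kit, which both gates select for and which was lower in WT GMP (-0.49, adjusted p = 0.0114), and Fcgr3, a gene for the FcgRII/III epitope (1.10, adjusted p = 0.0051). Ly6a, which encodes Sca1, was not analysed here. The median intensity was 98.3 to 103 on the LSK arrays and 65.4 to 68.6 on the GMP arrays, and the median gene was lower in WT GMP than in LSK by a log2 difference of -0.18. Summed erythroid marker intensity (9 of 10 measured, Hba-a1 at background in all arrays) was 41049 to 44866 in LSK, 22172 to 35459 in WT GMP and 12682 to 16471 in NcstnKO GMP, and 6 of the 9 were called lower in NcstnKO than in WT GMP. Summed late neutrophil markers (7 of 8 measured) were 65271 to 84276, 32707 to 42979 and 46249 to 52436 in the same order, with 1 of 7 called higher in NcstnKO than in WT GMP. In WT GMP minus LSK, 5 of 5 B cell, 4 of 6 megakaryocyte and 2 of 6 resident macrophage markers were lower, and of 6 T and NK cell markers 3 were lower and 1 higher. Summed B cell markers were 5750 to 8614 in LSK, 2183 to 2664 in WT GMP and 1835 to 3023 in NcstnKO GMP. In NcstnKO minus WT GMP, 3 of 6 resident macrophage (median -1.03), 2 of 6 megakaryocyte, 1 of 6 T and NK cell and 0 of 5 B cell markers were lower. Apart from Hba-a1, no measured marker of these 6 cell types was at background in all arrays. The part of these other cells in the results below was not tested.

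Upstream sequence is shown first for 4 members picked as examples. As deposited, 2 (Orc1, Cdc45) were called between WT GMP and LSK and 2 MCM genes (Mcm5, Mcm6) were not. Centring on the 75th percentile called both MCM genes higher in WT GMP too (0.45 each, adjusted p = 0.00750 and 0.00278). The 4 windows therefore make no comparison of called with uncalled genes. RefSeq promoters of assembly GRCm38.p6, from 250 bases before to 50 after each start, were available for 35 of the 43 members; the others were Gmnn, Mcm4, Gins1, Gins2, Gins4, Prim2, Pole and Rfc2. The words searched on both strands were TTTCCCGC, TTTCGCGC, TTTGCCGC and TTTGGCGC, which can overlap one another. At least 1 of them stood in 13 of 35 member promoters (37.1%), against 2.6% of 27025 genes in the table. The share was 19 of 42 among other replication and S phase genes and 1 of 17 among G2 and M phase genes. The 13 members were Orc1, Cdc6, Cdt1, Mcm3, Mcm5, Mcm6, Mcm7, Pola1, Pold1, Pole2, Rfc3, Lig1 and Uhrf1. With words of 7 bases the counts were 21 of 35 (60.0%) and 10.9%. The 200 bases before the start follow, 5′ to 3′ as transcribed, for Orc1 at chr4:108579254-108579453 (+ strand), Cdc45 at chr16:18811973-18812172 (- strand), Mcm5 at chr8:75109309-75109508 (+ strand) and Mcm6 at chr1:128359706-128359905 (- strand). Capitals mark the words found:
Orc1: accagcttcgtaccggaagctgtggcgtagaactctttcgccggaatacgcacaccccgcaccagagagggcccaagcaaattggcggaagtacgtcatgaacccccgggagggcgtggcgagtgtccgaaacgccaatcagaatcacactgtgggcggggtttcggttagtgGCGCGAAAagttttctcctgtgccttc
Cdc45: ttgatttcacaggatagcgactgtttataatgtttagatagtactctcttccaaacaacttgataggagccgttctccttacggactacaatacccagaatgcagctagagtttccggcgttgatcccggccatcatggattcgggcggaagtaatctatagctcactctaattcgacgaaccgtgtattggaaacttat
Mcm5: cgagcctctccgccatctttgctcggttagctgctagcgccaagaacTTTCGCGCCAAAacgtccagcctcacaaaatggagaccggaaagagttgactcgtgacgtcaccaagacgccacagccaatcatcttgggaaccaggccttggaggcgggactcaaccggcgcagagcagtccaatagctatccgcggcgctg
Mcm6: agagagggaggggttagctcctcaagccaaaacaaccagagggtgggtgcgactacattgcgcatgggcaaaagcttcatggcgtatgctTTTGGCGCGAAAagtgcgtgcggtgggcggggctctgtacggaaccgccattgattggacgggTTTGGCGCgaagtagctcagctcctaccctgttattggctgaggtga

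The Orc1 word begins 27 bases before the start. In Mcm5 the words begin 153 and 149 bases before it and share letters. Mcm6 holds an overlapping pair that begins 110 and 106 bases before the start and 1 more word 47 bases before it. The Cdc45 window holds none of the 4 words, which says only that these letters are not in this stretch.

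As deposited, few of these genes were called between WT GMP and LSK; with each array centred on its 75th percentile, 35 of 43 were called higher in each GMP group than in LSK. In WT GMP against LSK, the step from stem-enriched to committed progenitors, Orc1 (1.38-fold) and Cdc45 (1.35-fold) were higher and Pole (1.40-fold) was lower. Each of these calls was lost when certain single arrays were left out. With the replicate number as a block, Orc1 was not called (adjusted p = 0.0758). In NcstnKO against WT GMP, which compares the same sorted fraction between the genotypes, none of the 43 passed an adjusted p of 0.05. In NcstnKO GMP against LSK, 11 were higher and 2 lower, led by Pole (1.90-fold lower), Orc1 (1.87-fold higher) and Rpa3 (1.62-fold higher). That difference is the sum of the other two and shares arrays with both, so it is no separate evidence.

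**Figure D1:**
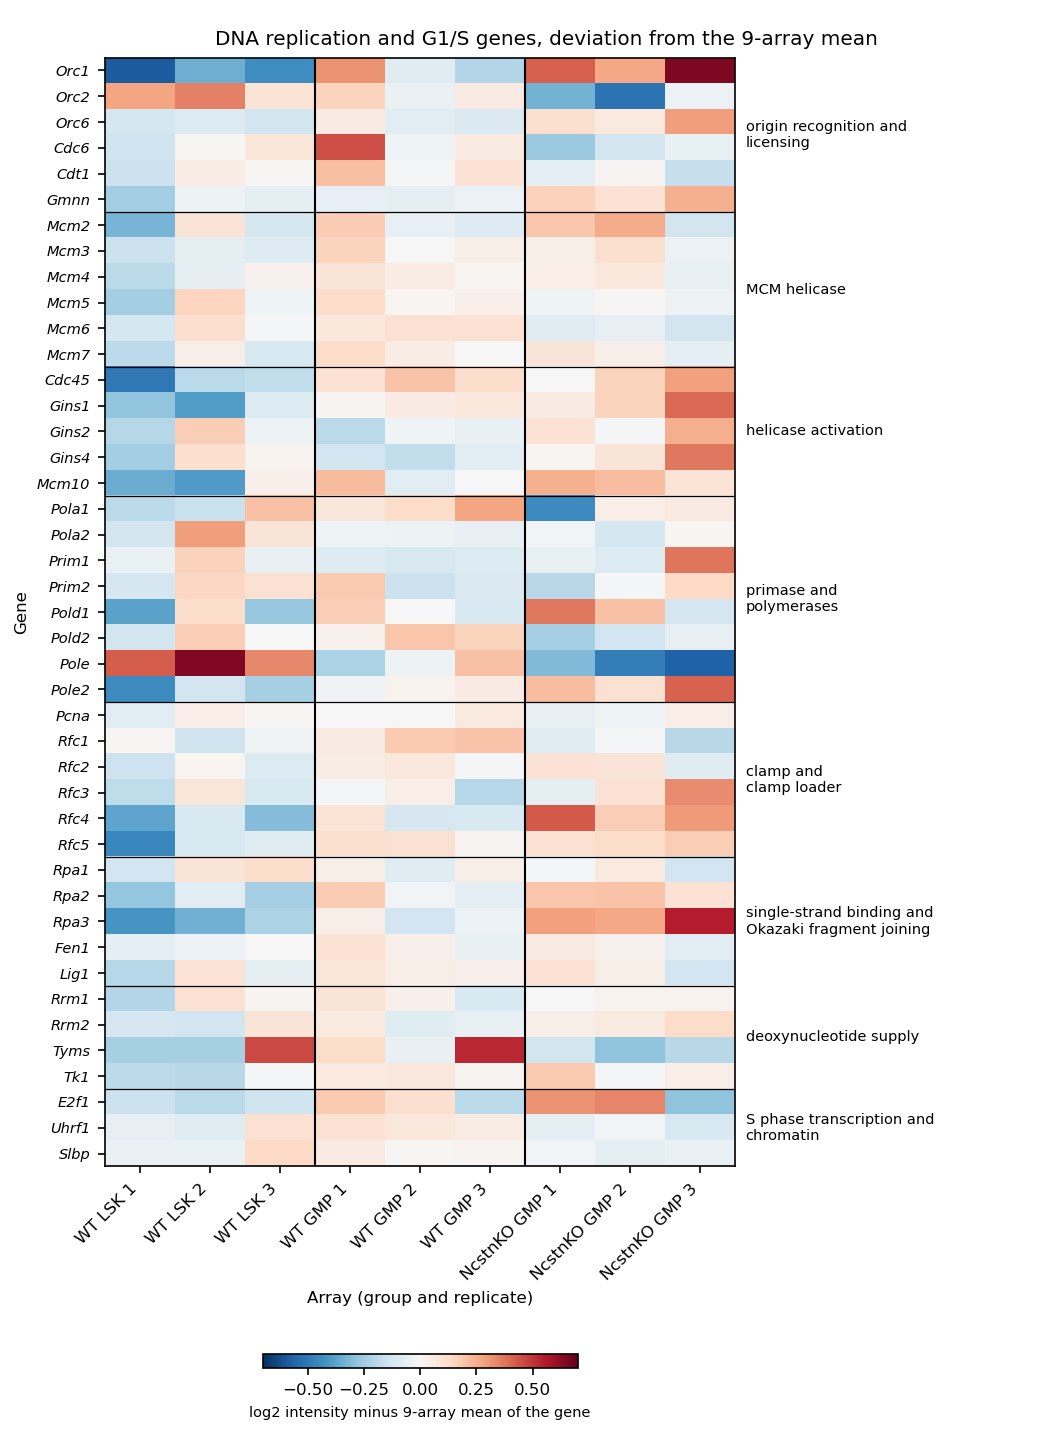
Each row is 1 of the 43 genes, grouped by role, and each column 1 array; colour gives the log2 intensity minus that gene's mean over the 9 arrays. Orc1 and Pole shift in opposite directions from LSK through WT GMP to NcstnKO GMP, most MCM and clamp genes stay pale, and LSK array 1 is blue in most genes.

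In WT GMP minus LSK, 3 of 43 members were called (6.98%), beside 38.0% of all genes (7.48% higher, 30.5% lower) and 31.2% of the 7053 genes at least as bright as the second dimmest member (log2 intensity 9.15). The members' median difference was 0.11, their range -0.49 to 0.46, and 35 differences were above 0 and 8 below. Over all genes the median was -0.18, and 41 of 43 members lay above it. The LSK and WT GMP arrays did not overlap for 12 members (10 higher in WT GMP, 2 lower), beside 54.6% of all genes. For 37 members (86.0%) the 95% interval of the difference lay within 1.5-fold either way, beside 48.4% of all genes and 60.1% of the bright ones. The count of 3 rested on single arrays: it was 0 without WT GMP array 2, 1 without WT GMP array 1, LSK array 1 or LSK array 2, and 5 without LSK array 3 or NcstnKO array 3. It also rested on how arrays are scaled: quantile normalization gave 9 higher and 0 lower, and centring each array on its 75th percentile 35 higher and 0 lower, with medians of 0.16 and 0.46. Centring adds 0.35 to every gene's WT GMP minus LSK difference, so the members stood as far above the median gene as before, and the 41 above it were 33 after quantile normalization. Over all genes the split of higher and lower calls was 1360 and 5550 as deposited, 3607 and 2797 after quantile normalization, and 5948 and 2610 after centring.

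In NcstnKO minus WT GMP, 0 of 43 members were called by limma, beside 5.70% of all genes (2.44% higher, 3.26% lower) and 9.49% of the bright ones, and 9 members had an unadjusted p under 0.05. The median difference was 0.00 with a range of -0.44 to 0.44, and 22 members were above 0 and 21 below. The smallest adjusted p was 0.0543, for Rpa3. WT and NcstnKO arrays did not overlap for 17 members (39.5%, 7 higher in NcstnKO, 10 lower), beside 31.9% of all genes and 44.6% of the bright ones. For 35 members (81.4%) the 95% interval lay within 1.5-fold either way, beside 62.4% of all genes and 64.8% of the bright ones. Rpa3 alone was called when the dimmest 40% of genes were left out (adjusted p = 0.0372), under centring on the 75th percentile, or with an intensity trend in the variance (adjusted p = 0.0280). The count over all genes, 1037, was itself unstable: it was 845 without LSK array 2 but only 2 to 623 without any 1 of the other 8 arrays, with the 2 without WT GMP array 3. RNA quality, read as the log2 ratio of the Actb control probe sets at either end of the transcript (3 prime over 5 prime), was 0.577 ± 0.111 in WT GMP and 0.899 ± 0.14 in NcstnKO GMP (SD, n = 3; exact permutation p = 0.1, the smallest possible, 2-sided). With that ratio as a covariate the members' median was -0.093 and no gene of the 18193 was called, and its part in the result was not tested further.

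In NcstnKO GMP minus LSK, 13 members were called (30.2%), beside 46.8% of all genes (14.6% higher, 32.3% lower) and 49.5% of the bright ones. The 11 higher were Orc1, Orc6, Gmnn, Cdc45, Gins1, Mcm10, Pole2, Rfc4, Rfc5, Rpa2 and Rpa3, and the 2 lower were Orc2 and Pole. The median was 0.11 (all genes -0.12) and the range -0.92 to 0.90. NcstnKO GMP and LSK arrays did not overlap for 14 members (12 higher, 2 lower), beside 56.4% of all genes. The count was 8 without LSK array 1 or with the Actb ratio as a covariate. It was 7 with the replicate block in these 2 groups alone and 36 under centring on the 75th percentile. Leaving out the 4 arrays whose transcripts went against the labelled sex kept a single array in each GMP group, so its count is not given.

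**Figure D2:**
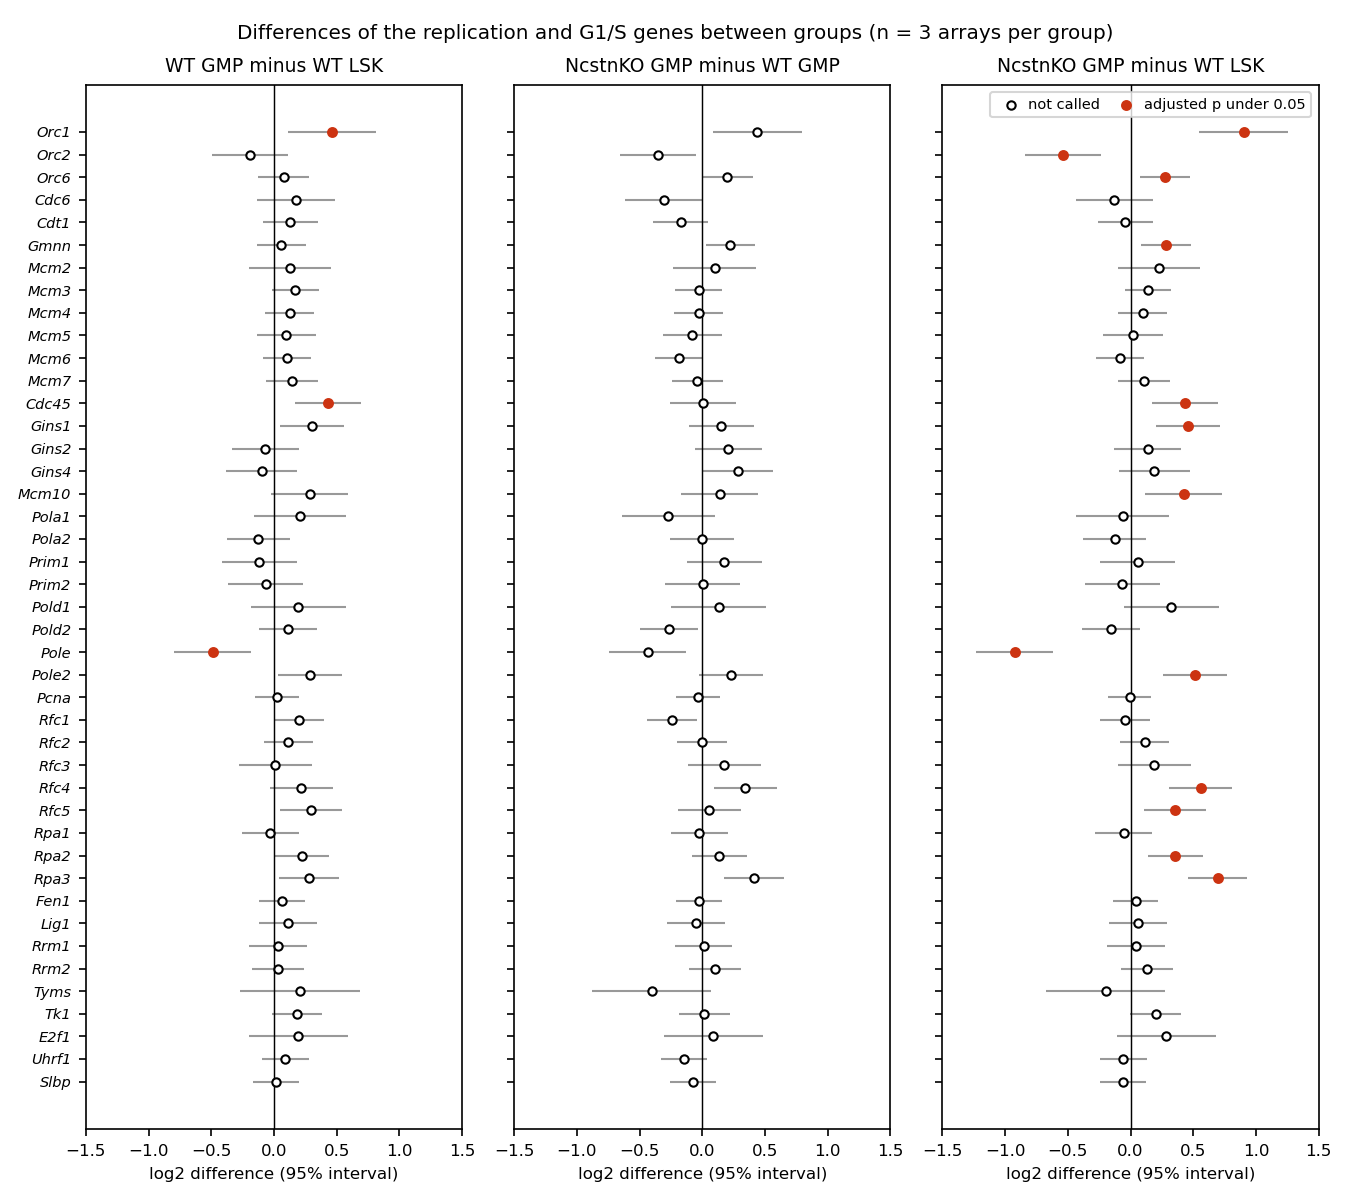
Log2 differences with 95% intervals (x axis) for each of the 43 genes (y axis) in the 3 comparisons, 3 arrays per group; filled points passed an adjusted p of 0.05. Filled points number 3 in WT GMP minus LSK, 0 in NcstnKO minus WT GMP and 13 in NcstnKO GMP minus LSK, and most intervals in the first 2 panels cross 0.

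Among the 6 genes of origin recognition and licensing, 1 was higher in WT GMP than in LSK and 5 did not pass the test. Orc1, an ATP-binding subunit of the origin recognition complex, read 8.56, 8.81 and 8.71 in LSK arrays 1 to 3, 9.46, 9.06 and 8.94 in WT GMP and 9.57, 9.42 and 9.80 in NcstnKO GMP (log2 intensity). All LSK arrays lay below all GMP arrays, while WT GMP array 1 lay among the NcstnKO arrays. Its difference was 0.46 (SE 0.15, adjusted p = 0.0440) for WT GMP minus LSK, 0.44 (95% interval 0.09 to 0.79, adjusted p = 0.125) for NcstnKO minus WT GMP and 0.90 (adjusted p = 0.00161) for NcstnKO GMP minus LSK. The WT GMP call was lost without any 1 LSK array, without WT GMP array 1 or 2 and without NcstnKO array 1 (adjusted p 0.0576 to 0.128), and with the replicate number as a block (adjusted p = 0.0758). It was also lost with sex as a covariate, an intensity trend, only the 2 groups or the mean of both probe sets (adjusted p 0.0526 to 0.456). Orc2, another subunit of the complex, read 11.14, 11.21 and 10.96 in LSK, 11.01, 10.81 and 10.91 in WT GMP and 10.53, 10.34 and 10.82 in NcstnKO GMP. The NcstnKO arrays were all below LSK and reached up into the WT GMP range through array 3. Orc2 differed by -0.19 (adjusted p = 0.291), -0.35 (adjusted p = 0.149) and -0.54 (adjusted p = 0.00965) in the same 3 comparisons, but its 2 other probe sets read 0.42 and 0.47 in the last, the opposite sign. Geminin (Gmnn), the inhibitor of Cdt1, was at 12.38 ± 0.115 in LSK, 12.44 ± 0.00973 in WT GMP and 12.67 ± 0.0738 in NcstnKO GMP, 0.22 higher in NcstnKO than in WT GMP without passing (adjusted p = 0.156). Orc6 was 0.20 higher there (adjusted p = 0.211), and its NcstnKO GMP against LSK call (adjusted p = 0.0318) was lost with the block (adjusted p = 0.0579). The loading factors Cdc6 and Cdt1 were lower in NcstnKO than in WT GMP by -0.31 and -0.17 (adjusted p = 0.207 and 0.314).

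The 6 subunits of the MCM helicase, which unwinds DNA at the fork, had small differences as deposited, and 0 of 6 passed the test in any of the 3 comparisons. Centring on the 75th percentile called all 6 higher in WT GMP than in LSK (0.45 to 0.52, adjusted p 0.00161 to 0.0248) and all 6 higher in NcstnKO GMP than in LSK (0.30 to 0.61). Of the 4 other Mcm3 probe sets, 1 was called as deposited in both comparisons with LSK (0.40, adjusted p = 0.0197, and 0.48, adjusted p = 0.00704) and another in NcstnKO GMP minus LSK (0.30, adjusted p = 0.0370). On the probe sets used, the WT GMP minus LSK differences of the 6 subunits all lay between 0.10 and 0.17. Their NcstnKO minus WT GMP differences on those sets lay between -0.18 and 0.10. As deposited and on those sets, every one of the 6 had 95% intervals within 1.5-fold either way in all 3 comparisons. Centring adds 0.35 to each WT GMP minus LSK difference, so this does not carry over to that scaling. The other Mcm2 set, nearly as bright (11.87 beside 11.89), read 0.34 in WT GMP minus LSK (adjusted p = 0.0568). Mcm3 read 12.23, 12.31 and 12.29 in LSK, 12.53, 12.38 and 12.42 in WT GMP and 12.42, 12.49 and 12.34 in NcstnKO GMP, so that every GMP array lay above every LSK array (difference 0.17, adjusted p = 0.134). Mcm7 read 12.96, 13.18 and 13.02 in LSK, 13.27, 13.19 and 13.14 in WT GMP and 13.23, 13.18 and 13.07 in NcstnKO GMP, with overlap in all 3 comparisons. Mcm6 read 12.71, 12.95 and 12.82 in LSK, 12.91, 12.94 and 12.94 in WT GMP and 12.75, 12.78 and 12.71 in NcstnKO GMP. All 3 NcstnKO arrays of Mcm6 lay below all 3 WT GMP arrays, a difference of -0.18 (95% interval -0.38 to 0.01, adjusted p = 0.218).

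Of the 5 helicase activation genes, 1 was higher in WT GMP than in LSK. Cdc45, which joins MCM and GINS in the active helicase, read 10.07, 10.38 and 10.40 in LSK, 10.68, 10.77 and 10.70 in WT GMP and 10.57, 10.73 and 10.86 in NcstnKO GMP. Both GMP groups lay wholly above LSK and overlapped each other. Its difference was 0.43 (SE 0.12, adjusted p = 0.0193) between WT GMP and LSK and 0.01 (95% interval -0.26 to 0.27) between NcstnKO and WT GMP. The first was not called without LSK array 1 (adjusted p = 0.0569) or WT GMP array 2 (adjusted p = 0.0622). It was also not called with the mean of both probe sets (adjusted p = 0.0681) or with the Actb ratio as a covariate (adjusted p = 0.0895). Without the 4 arrays of contrary sex, which leaves a single WT GMP array, it was 0.39. Gins1, a GINS subunit, read 11.60, 11.48 and 11.78 in LSK, 11.89, 11.93 and 11.95 in WT GMP and 11.93, 12.03 and 12.27 in NcstnKO GMP. Again every GMP array exceeded every LSK array, but the WT GMP difference of 0.30 missed the threshold (adjusted p = 0.0629, 0.0498 with the replicate block over all 3 groups and 0.0709 with the block in these 2 groups alone), and the NcstnKO GMP minus LSK difference of 0.46 passed (adjusted p = 0.00994). Gins4, from the same complex, read 10.76, 11.11 and 11.02 in LSK, 10.86, 10.82 and 10.92 in WT GMP and 11.01, 11.09 and 11.37 in NcstnKO GMP. Its NcstnKO arrays lay above the WT GMP arrays and overlapped LSK (NcstnKO minus WT GMP 0.28, adjusted p = 0.203). Gins2 had the same order, 0.21 higher in NcstnKO than in WT GMP (adjusted p = 0.320), and Mcm10, which helps activate the helicase, was 0.28 higher in WT GMP than in LSK (adjusted p = 0.127).

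**Figure D3:**
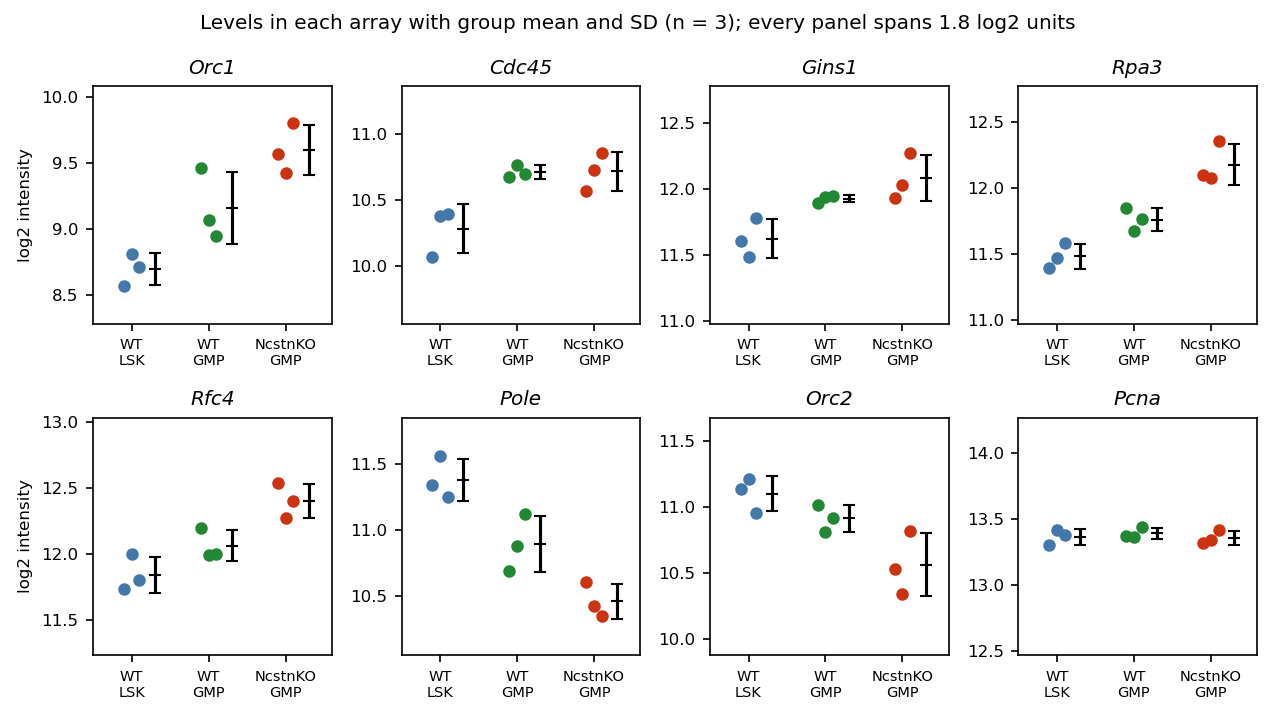
Log2 intensity of 8 members in each of the 3 arrays per group, with the group mean and SD beside the points; every panel covers the same span of log2 units. Orc1, Rpa3 and Rfc4 are higher in NcstnKO GMP than in LSK, Pole and Orc2 lower, and Pcna lies between 13.30 and 13.44 in all 9 arrays.

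Of the 8 primase and polymerase genes, Pole was the 1 called in WT GMP against LSK as deposited. Centring on the 75th percentile called 4 of the 8, all higher, and not Pole. Pole, the catalytic subunit of the leading-strand polymerase epsilon, read 11.34, 11.56 and 11.25 in LSK, 10.69, 10.88 and 11.12 in WT GMP and 10.61, 10.43 and 10.35 in NcstnKO GMP. The 3 groups stood in 3 separate ranges. The difference was -0.49 (SE 0.13, adjusted p = 0.0213) for WT GMP minus LSK, -0.44 (95% interval -0.74 to -0.13, adjusted p = 0.0925) for NcstnKO minus WT GMP and -0.92 (adjusted p = 0.000723) for NcstnKO GMP minus LSK. The WT GMP call was lost without LSK array 2, WT GMP array 1 or WT GMP array 2 (adjusted p 0.0597 to 0.0723). It was also lost with labelled sex (adjusted p = 0.0519) or the Actb ratio (adjusted p = 0.104) as a covariate. Under quantile normalization and centring on the 75th percentile it was lost too, with differences of -0.37 and -0.14. Without the 4 arrays of contrary sex, which leaves a single WT GMP array, the difference was -0.69. Pole2, the accessory subunit of the same polymerase, went the other way and read 10.05, 10.36 and 10.26 in LSK, 10.46, 10.51 and 10.55 in WT GMP and 10.71, 10.59 and 10.90 in NcstnKO GMP. These 3 groups were separate too, with differences of 0.29 (adjusted p = 0.0738), 0.23 (adjusted p = 0.255) and 0.51 (adjusted p = 0.00551), but a second, dim Pole2 probe set read -0.80 in NcstnKO GMP minus LSK. The catalytic and accessory subunits of polymerase delta, Pold1 and Pold2, differed by 0.13 and -0.27 between NcstnKO and WT GMP (adjusted p = 0.674 and 0.151). The polymerase alpha and primase genes Pola1, Pola2, Prim1 and Prim2 lay down primers. As deposited they differed between WT GMP and LSK by 0.21, -0.12, -0.12 and -0.07, and none passed.

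In the clamp and clamp loader group 0 of 6 were called in WT GMP against LSK or in NcstnKO against WT GMP, and 2 (Rfc4, Rfc5) were higher in NcstnKO GMP than in LSK. Pcna, the sliding clamp and a common marker of proliferating cells, was at 13.36 ± 0.0599 in LSK, 13.39 ± 0.0404 in WT GMP and 13.36 ± 0.0518 in NcstnKO GMP. As deposited, the 95% intervals of its differences were -0.15 to 0.20 for WT GMP minus LSK and -0.21 to 0.14 for NcstnKO minus WT GMP. After centring, Pcna was called 0.37 higher than in LSK in both WT GMP (adjusted p = 0.00430) and NcstnKO GMP (adjusted p = 0.00284). Rfc5 and Rfc4 are small subunits of the complex that opens the clamp. Rfc5 read 10.42, 10.78 and 10.80 in LSK, 11.00, 10.99 and 10.90 in WT GMP and 10.99, 11.01 and 11.06 in NcstnKO GMP, with LSK wholly below both (0.30 in WT GMP, adjusted p = 0.0606). Rfc4 read 11.73, 12.00 and 11.80 in LSK, 12.20, 11.99 and 12.00 in WT GMP and 12.53, 12.28 and 12.40 in NcstnKO GMP, with NcstnKO wholly above the other groups. Its NcstnKO minus WT GMP difference was 0.34 (adjusted p = 0.102), and a second Rfc4 probe set read 0.09. In NcstnKO GMP minus LSK, the set used read 0.56 (adjusted p = 0.00328) and the second set 0.18 (adjusted p = 0.190). Rfc1, the large subunit, read 12.03, 11.88 and 12.00 in LSK, 12.09, 12.21 and 12.22 in WT GMP and 11.94, 12.01 and 11.83 in NcstnKO GMP. WT GMP lay wholly above both other groups, by 0.20 over LSK (adjusted p = 0.104), and NcstnKO was lower than WT GMP by a difference of -0.24 (adjusted p = 0.132). Rfc2 and Rfc3 differed by 0.11 and 0.01 between WT GMP and LSK.

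RPA coats single-stranded DNA, and its small subunit Rpa3 came nearest to a call between the genotypes. Rpa3 read 11.39, 11.47 and 11.59 in LSK, 11.85, 11.67 and 11.77 in WT GMP and 12.10, 12.08 and 12.36 in NcstnKO GMP, in 3 separate ranges. NcstnKO minus WT GMP was 0.41 (SE 0.10, adjusted p = 0.0543), WT GMP minus LSK 0.28 (adjusted p = 0.0642) and NcstnKO GMP minus LSK 0.69 (adjusted p = 0.000839). Rpa2, the middle subunit, read 11.55, 11.75 and 11.60 in LSK, 12.00, 11.81 and 11.76 in WT GMP and 12.02, 12.03 and 11.93 in NcstnKO GMP. Its NcstnKO GMP arrays exceeded LSK by 0.36 (adjusted p = 0.0147), while another Rpa2 probe set read -0.30. Rpa1, the large subunit, was flat on the probe set used (-0.03 in WT GMP minus LSK), while a second probe set was called 0.60 higher in WT GMP (adjusted p = 0.0264). Fen1 and Lig1, which trim and join Okazaki fragments, differed by 0.06 and 0.11 between WT GMP and LSK and by -0.02 and -0.05 between the genotypes.

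None of the 4 deoxynucleotide supply genes or the 3 genes of S phase transcription and chromatin was called in any of the 3 comparisons on the probe sets used. Tk1, the salvage kinase for thymidine, read 11.74, 11.73 and 11.91 in LSK, 11.99, 12.00 and 11.94 in WT GMP and 12.10, 11.91 and 11.97 in NcstnKO GMP, with WT GMP wholly above LSK (0.18, adjusted p = 0.134). Tyms, thymidylate synthase, read 7.68, 7.68 and 8.38 in LSK, 8.05, 7.87 and 8.45 in WT GMP and 7.79, 7.64 and 7.72 in NcstnKO GMP. Array 3 was high in both WT groups, NcstnKO lay wholly below WT GMP, and the genotypes differed by -0.40 (95% interval -0.88 to 0.07, adjusted p = 0.275); Tyms had the widest spread of any member in LSK and in WT GMP. The other Tyms sets of 1 symbol, all dimmer, read 0.03, -0.17 and 0.01 in NcstnKO minus WT GMP. A Tyms probe set shared with another symbol was left out by the rule of 1 symbol. For the ribonucleotide reductase subunits, Rrm1 and Rrm2 each differed by 0.03 between WT GMP and LSK, but a second Rrm2 probe set was called 0.48 higher in WT GMP (adjusted p = 0.0249). In NcstnKO GMP minus LSK, that set and another Rrm2 set were called higher (0.55 and 0.65, adjusted p = 0.0107 and 0.0482). There, a second Rrm1 set was called lower (-0.50, adjusted p = 0.0145), and a dim Rrm1 set read -0.03. E2f1, the transcription factor of the G1/S step, read 10.06, 10.02 and 10.06 in LSK, 10.39, 10.32 and 10.02 in WT GMP and 10.52, 10.55 and 9.92 in NcstnKO GMP. Array 3 was the lowest in both GMP groups, and all 3 groups overlapped. Without NcstnKO array 3 the E2f1 difference of 0.28 in NcstnKO GMP minus LSK (adjusted p = 0.208) became 0.49 (adjusted p = 0.0143). Leaving out no other single array made it a call. In that comparison a dimmer E2f1 set read 0.28 (adjusted p = 0.238), and the dimmest was called lower (-0.28, adjusted p = 0.0385). Uhrf1, which guides maintenance of DNA methylation behind the fork, read 12.70, 12.67 and 12.87 in LSK, 12.87, 12.83 and 12.81 in WT GMP and 12.69, 12.74 and 12.64 in NcstnKO GMP. NcstnKO lay wholly below WT GMP by a difference of -0.15 (adjusted p = 0.309). Slbp, which binds the stem loop of histone mRNA, differed by 0.01 and -0.07 in WT GMP minus LSK and NcstnKO minus WT GMP. In NcstnKO GMP minus LSK a second Slbp set was called lower (-0.42, adjusted p = 0.0499), and a dim set read 0.17.

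The probe set chosen mattered. Of 52 other probe sets of 32 members, 5 were called in WT GMP minus LSK, 0 in NcstnKO minus WT GMP and 12 in NcstnKO GMP minus LSK. Of the 3 members called in WT GMP minus LSK, Orc1 and Cdc45 each had 1 other, dimmer set, which read -0.16 and -0.01, and Pole had none. Among 32 other sets that were at least as bright as the second dimmest member, from 23 members, the WT GMP minus LSK median was 0.16, beside 0.10 on the sets used for the same members. Of these 32, 3 were called higher (for Mcm3, Rpa1 and Rrm2) and 0 lower, and 19 read higher than the set used. In NcstnKO minus WT GMP their median was -0.04, beside -0.02.

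Of 52 other genes listed for replication and S phase, 48 were analysed here. In WT GMP minus LSK 3 were higher (Hells, Cdca7, Topbp1) and 6 lower, 18.8% of the 48 beside 38.0% of all genes, with a median of 0.00. The 4 with the smallest p were all lower: E2f2, an E2F factor (-1.08, adjusted p = 0.00537), Pole4, a small polymerase epsilon subunit (-0.79, adjusted p = 0.0128), Orc5, an origin recognition subunit (-0.42, adjusted p = 0.0196), and Chaf1b, a subunit of the histone chaperone CAF-1 (-0.42, adjusted p = 0.0216). In NcstnKO minus WT GMP 0 were higher and 2 lower, 4.17% beside 5.70% of all genes: Mcmbp, an MCM-binding protein (-0.64, adjusted p = 0.0236), and Mcm9, an MCM relative in DNA repair (-0.53, adjusted p = 0.0426). Mcmbp read 10.76, 10.91 and 10.91 in WT GMP and 10.14, 10.34 and 10.16 in NcstnKO GMP, with no overlap. These 2 calls fell to 0 without WT GMP array 2, WT GMP array 3, NcstnKO array 1 or NcstnKO array 3, and to 1 without LSK array 1, LSK array 3 or NcstnKO array 2. The 9 calls in WT GMP minus LSK fell to 3 without WT GMP array 2, 4 without WT GMP array 3 and 5 without WT GMP array 1, LSK array 1 or LSK array 2. Of 19 measured G2 and M phase genes, 0 were higher and 2 lower in WT GMP than in LSK, and 0 higher and 1 lower in NcstnKO than in WT GMP, with medians of -0.08 and -0.16; the called shares were 10.5% and 5.26%, beside the same 38.0% and 5.70%. The 1 lower gene was Prc1, needed for cytokinesis (-0.42, adjusted p = 0.0275).

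Arrays differed in the members' common level. The median deviation of the 43 genes from their 9-array means was -0.18, -0.03 and -0.02 in LSK arrays 1 to 3, 0.09, 0.00 and 0.01 in WT GMP and 0.04, 0.05 and 0.01 in NcstnKO GMP. LSK array 1 held the lowest value of its group in 31 of 43 members, and in 18 of 19 G2 and M phase genes. WT GMP array 1 held the highest in 27 of 43 members (62.8%), beside 31.8% of all genes. Without LSK array 1 the median WT GMP minus LSK difference of the members was 0.07 in place of 0.11. The median SD over members was 0.133 in LSK, 0.0782 in WT GMP and 0.102 in NcstnKO GMP, beside 0.145, 0.123 and 0.151 over all genes.

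**Figure D4:**
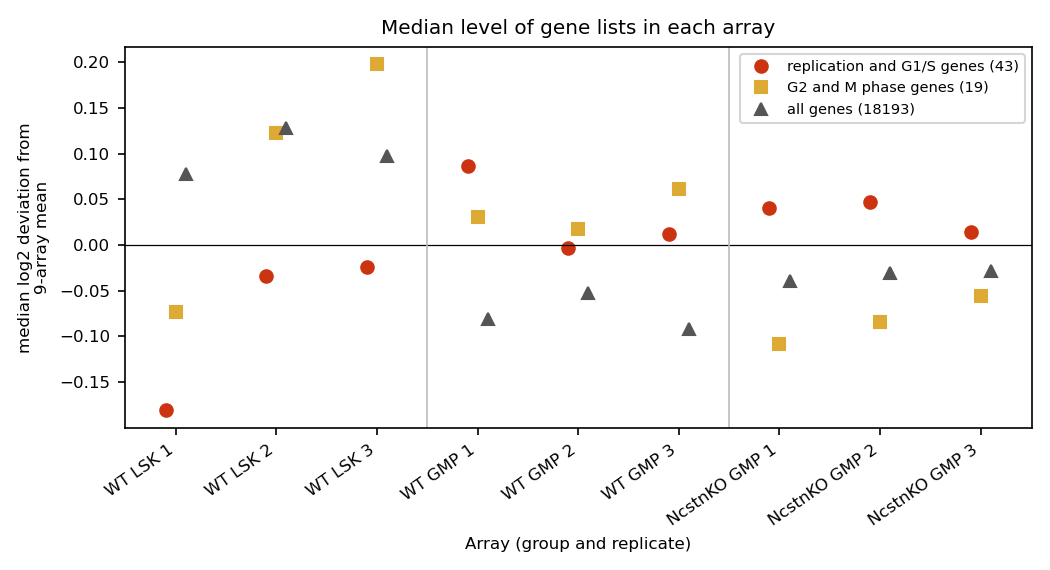
Median log2 deviation from the 9-array mean (y axis) in each array (x axis) for the 43 replication and G1/S genes, 19 G2 and M phase genes and all 18193 genes. The replication genes are lowest in LSK array 1 (-0.18) and highest in WT GMP array 1 (0.09), while the median of all genes is above 0 in LSK and below 0 in both GMP groups.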

How the data were processed

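Per the labels' protocols, 5 ng of RNA was amplified and labelled with biotin. The authors deposited linear intensity values per probe set, and the submitters' processing notes name RMA without a version number; joint normalization of the 9 arrays is not given in the sources used here. The log2 of the deposited intensity was fitted by 3 group means over the 9 arrays (6 residual df) with limma's lmFit and eBayes (version 3.58.1, R 4.3.3), 2-sided. Calls needed an adjusted p (Benjamini-Hochberg, 18193 genes) under 0.05. Each gene had 1 probe set, from the 34945 of 45101 probe sets with 1 symbol in GEO's platform annotation. Precision is limited by 3 arrays per group. The fit was tested on simulated data.

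The members and gene lists were chosen with earlier results of these data known. Values in every array are given for the 2 members of each role group with the smallest p in WT GMP minus LSK and the 1 with the smallest in NcstnKO minus WT GMP, and Mcmbp's were added after its values were seen. Hells, Cdca7, Topbp1 and Prc1 are named because few genes were called, after their values were seen.

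Replicate numbers 1 to 3 occur in each group, with a letter c in the LSK titles. LSK and WT GMP arrays of the same number deviated together over genes (r of 0.219, 0.238 and 0.291), so the numbers were taken to pair these groups; the labels do not state it. NcstnKO and WT GMP arrays of the same number gave -0.0924, 0.00367 and 0.0219. Alternatives were other scalings, other filters and probe set rules, covariates for sex and the Actb ratio, a replicate block, and leaving out each array. Leaving out the 4 arrays of contrary sex transcripts, and the block within 2 groups, were added after seeing the data. The first of these kept a single array in each GMP group, so only effect sizes are given for it.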

Additional observations from a re-analysis of the deposited data

How the results depend on the processing

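Of the 43 members, 3 (WT GMP minus LSK), 0 (NcstnKO minus WT GMP) and 13 (NcstnKO GMP minus LSK) were called. In that order, centring on the 75th percentile gave 35, 1 and 36. Some other alternatives moved a count by over 1.5 times. For WT GMP minus LSK they were quantile normalization (9) and an intensity trend (6). For NcstnKO minus WT GMP they were the trend (1) and leaving out the dimmest 40% of genes (1). For NcstnKO GMP minus LSK they were the Actb covariate (8) and the block within the 2 groups (7). Leaving out the 4 arrays of contrary sex transcripts kept a single array in each GMP group, so its counts are not given. Leaving out 1 array gave 0 to 5, 0 to 0 and 8 to 13. For the other replication genes (9, 2 and 16 called), centring gave 26, 1 and 27 and the block within the 2 groups 5, 0 and 9. Leaving out 1 array gave 3 to 10, 0 to 2 and 13 to 16. Their count for WT GMP minus LSK was also 5 with labelled sex or the Actb ratio, and for NcstnKO GMP minus LSK 8 with transcript sex. For NcstnKO minus WT GMP it was 1 (lower) under quantile normalization, each probe set on its own or the replicate block, 1 with the mean of all probe sets (higher, with both lower calls lost), 4 without the dimmest 40%, and 0 with only the 2 groups, either sex covariate or the Actb ratio.

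Median member differences moved to 0.46 and 0.49 under centring for both comparisons with LSK and to -0.093 with the Actb ratio in NcstnKO minus WT GMP; leaving out 1 array gave 0.07 to 0.16, -0.01 to 0.02 and 0.05 to 0.13. Centring added 0.35, 0.03 and 0.38 to every difference, in the same order of comparisons, and turned the sign of 7, 6 and 13 members. Those called after the turn were Rpa1 in WT GMP minus LSK (0.32) and, in NcstnKO GMP minus LSK, Cdt1 (0.34), Mcm6 (0.30), Pcna (0.37), Rfc1 (0.34), Rpa1 (0.33), Uhrf1 (0.32) and Slbp (0.32). With the mean of all probe sets the sign also turned in NcstnKO GMP minus LSK for 3 members called in either fit, Orc2 (0.12), Cdt1 (0.32) and Pole2 (-0.14). The Cdt1 mean includes a set whose mean log2 intensity, 3.84, lay below every array's background limit and which read 0.98. The brighter Cdt1 sets read -0.04 and 0.02. With 7-base words, 21 promoters matched in place of 13. The replicate block changed the WT GMP minus LSK call of Orc1 (adjusted p = 0.0758) and Gins1 (adjusted p = 0.0498) and the NcstnKO GMP minus LSK call of Orc6 (adjusted p = 0.0579), and no other member's call; within LSK and WT GMP alone, the groups the numbers pair, Gins1 was not called (adjusted p = 0.0709). The cause of these shifts was not tested. With 3 arrays per group, the median SE of a member's log2 difference was 0.104.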
